A study of Mus musculus with 5 samples.

Results

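Adipocyte-marker nuclei of mouse hindlimb muscle were followed in 4 libraries: Cacna1s-/- at E18.5 (embryonic day), wild type (WT) at P5 (postnatal day), WT adult, and WT at E18.5. Hindlimb muscle dissected free of skin and bone was pooled, and each nucleus gave both RNA and open chromatin, in 1 library per group. Both genotypes were on C57bl6n, and the study's methods give the adults as 8 weeks old and of both sexes. The pools held 26 Cacna1s-/- E18.5, 8 P5, 4 adult and 14 WT E18.5 hindlimbs. Cacna1s encodes the pore-forming subunit of the muscle L-type calcium channel, which couples membrane depolarization to contraction. The null allele is carried by every cell of the Cacna1s-/- animals and not by fibers alone. Nuclei were selected on their own RNA by 7 marker genes, so the RNA values describe them and are no test. A nucleus was taken as a member when it held more than 400 and fewer than 25000 gene UMIs (unique molecular identifiers), Ttn under 1% of these, and at least 1 UMI of at least 3 of the 7 genes Adipoq, Plin1, Pparg, Acvr1c, Cidec, Lipe and Plin4, with their sum at 0.1% or more. This gave 114 Cacna1s-/- E18.5, 32 P5, 106 adult and 9 WT E18.5 nuclei, together 261 of 16380 nuclei within the UMI limits and of 17311 barcodes. The remaining library of the series, WT E14.5, held 0 of 4829 nuclei, which allows a share of up to 0.0621%.

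Fat cells store triglyceride in a droplet coated by perilipins, release it through hormone-sensitive lipase, and secrete adiponectin, leptin and other hormones. Their differentiation is driven by the nuclear receptor PPARG together with C/EBP and EBF factors. White fat cells store energy, whereas brown and beige fat cells burn it through the uncoupling protein UCP1, and within muscle fat cells are known to arise from mesenchymal fibro-adipogenic progenitors.

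Open chromatin was not used to choose the nuclei. The promoters of 5 genes at which it was higher in these nuclei than in the other nuclei of the same libraries are shown here as examples. They are RefSeq windows of 300 bases on GRCm38.p6, from 250 bases before the start to 50 after it, written 5′ to 3′ on the strand of the gene. Capitals mark a motif match: TTGCGCAA (C/EBP) in Lep, the EBF motif (TCCC and GGGA with any 2 bases between them) in Plin4, AGGTCA in Pparg, and AGGTCA read on the other strand in Cd36. Lipe held none.
Lep (leptin), chr6:29059971-29060270, + strand: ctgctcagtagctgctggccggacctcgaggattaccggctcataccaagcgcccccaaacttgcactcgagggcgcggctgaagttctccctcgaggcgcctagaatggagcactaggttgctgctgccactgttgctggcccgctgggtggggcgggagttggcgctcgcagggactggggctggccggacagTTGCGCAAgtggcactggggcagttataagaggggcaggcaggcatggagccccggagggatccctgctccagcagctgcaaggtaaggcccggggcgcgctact
Plin4 (perilipin 4), chr17:56109733-56110032, - strand: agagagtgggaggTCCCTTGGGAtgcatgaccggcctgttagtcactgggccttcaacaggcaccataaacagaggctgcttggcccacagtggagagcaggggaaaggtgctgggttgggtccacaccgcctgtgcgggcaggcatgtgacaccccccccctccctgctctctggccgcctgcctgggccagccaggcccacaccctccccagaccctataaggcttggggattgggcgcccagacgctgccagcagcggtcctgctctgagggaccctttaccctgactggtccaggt
Lipe (hormone-sensitive lipase), chr7:25390063-25390362, - strand: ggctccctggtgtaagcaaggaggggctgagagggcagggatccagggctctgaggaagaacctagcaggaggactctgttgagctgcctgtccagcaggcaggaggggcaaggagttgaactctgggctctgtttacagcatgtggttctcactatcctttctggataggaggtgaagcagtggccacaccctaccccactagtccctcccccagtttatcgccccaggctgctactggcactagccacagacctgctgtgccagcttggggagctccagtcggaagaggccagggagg
Pparg (nuclear receptor, the middle of the 3 starts read), chr6:115362099-115362398, + strand: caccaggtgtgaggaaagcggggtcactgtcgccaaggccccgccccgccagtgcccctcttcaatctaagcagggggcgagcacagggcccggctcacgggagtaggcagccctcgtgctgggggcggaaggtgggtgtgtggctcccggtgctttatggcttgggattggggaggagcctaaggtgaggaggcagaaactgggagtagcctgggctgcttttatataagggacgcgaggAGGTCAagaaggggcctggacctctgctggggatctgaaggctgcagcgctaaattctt
Cd36 (fatty acid translocase), chr5:17835847-17836146, - strand: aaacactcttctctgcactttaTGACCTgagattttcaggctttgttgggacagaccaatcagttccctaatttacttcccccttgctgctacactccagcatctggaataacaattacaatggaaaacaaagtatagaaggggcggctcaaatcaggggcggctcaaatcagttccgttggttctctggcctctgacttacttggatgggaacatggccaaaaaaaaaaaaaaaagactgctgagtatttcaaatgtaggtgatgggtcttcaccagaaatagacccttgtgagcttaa

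The marker nuclei made up 3.53% (95% exact binomial interval 2.92 to 4.23) of Cacna1s-/- E18.5 nuclei, 0.853% (0.584 to 1.20) of P5 nuclei and 2.07% (1.70 to 2.50) of adult nuclei, against 0.210% (0.0961 to 0.399) of WT E18.5 nuclei. The share in Cacna1s-/- E18.5 was 16.8 times that in WT E18.5 (8.55 to 37.7), the adult share was 9.86 times (5.00 to 22.2) and the P5 share 4.06 times (1.89 to 9.67). Adult exceeded P5 by 2.43 times (1.62 to 3.73). None of these intervals held 1, but with 1 library a group they cover counting error only, and the spread between animals or libraries is not known. The share of nuclei depends on the sort, in which nuclei with and without PCM1, a marker of fiber nuclei, were mixed in equal volumes. Of the nuclei with Ttn under 1% alone, marker nuclei were 5.08% in Cacna1s-/- E18.5, 1.59% at P5 and 15.6% in adult, against 0.334% in WT E18.5. On this denominator adult and not Cacna1s-/- E18.5 had the largest share of the 4 libraries, and the adult library held 680 such nuclei against 2242, 2017 and 2696 in the Cacna1s-/- E18.5, P5 and WT E18.5 libraries.

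**Figure D1:**
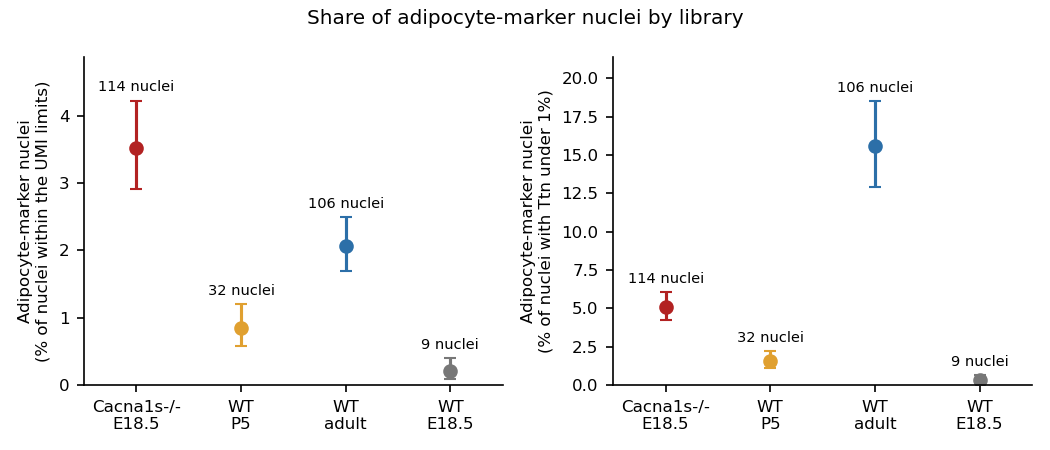
Share of adipocyte-marker nuclei in each library (percent of nuclei within the UMI limits, and of those with Ttn under 1%), with exact binomial 95% intervals that cover counting error only. Cacna1s-/- E18.5, P5 and adult lie above WT E18.5 on both denominators, and the adult share is 2.07% on one and 15.6% on the other.

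The rule cut off nuclei at its edges unevenly. A further 59 Cacna1s-/- E18.5 and 4 P5 nuclei passed on markers but lay over the UMI limit, against 0 adult and 0 WT E18.5 nuclei, so that without this limit the share in Cacna1s-/- E18.5 was 4.80%, against 0.204% in WT E18.5. Markers were met with Ttn at 1% or more in 4 Cacna1s-/- E18.5, 13 P5, 25 adult and 2 WT E18.5 nuclei. Just outside the rule, 11, 7 and 9 nuclei held 2 of the markers with a sufficient sum in Cacna1s-/- E18.5, P5 and adult, against 2 in WT E18.5, and just inside it 8, 3 and 9 nuclei held 3 of them, against 2 in WT E18.5. The lowest marker sum of a member was 0.149%, 0.178% and 0.208% in Cacna1s-/- E18.5, P5 and adult, against 0.117% in WT E18.5. All 7 markers were seen in 45, 17 and 21 members of Cacna1s-/- E18.5, P5 and adult, against 3 of WT E18.5.

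Depth differed between the groups. Members had a median of 10983 UMIs in Cacna1s-/- E18.5, 7159.5 at P5 and 2457 in adult, against 10660 in WT E18.5, and their UMIs summed to 1405545, 268951 and 419084, against 89230 in WT E18.5. Libraries shared 17 to 47 barcode sequences a pair, none of them between 2 members. The label of the knockout was checked in fiber nuclei (Ttn at 1% or more): Cacna1s stood at 0.701 CPM (the field's usual scaling of UMIs to the sum over the nuclei) in Cacna1s-/- E18.5, 349 CPM at P5 and 326 CPM in adult, against 188 CPM in WT E18.5. In the marker nuclei themselves Cacna1s had 0 UMIs in Cacna1s-/- E18.5, 3 at P5 and 2 in adult, against 0 in WT E18.5.

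The 7 genes of the rule are given as a description, because they chose the nuclei. Pparg, the master regulator of fat cell differentiation, had 3865 CPM in Cacna1s-/- E18.5, 2041 at P5 and 2596 in adult, against 2578 in WT E18.5, and was without a UMI in 18 adult members only. Adipoq, which encodes adiponectin, had 202, 193 and 162 CPM in Cacna1s-/- E18.5, P5 and adult, against 146 CPM in WT E18.5, and was seen in 79.8%, 65.6% and 34.9% of members, against 66.7% in WT E18.5. After each nucleus was thinned to 1000 UMIs the shares were 17.7%, 21.9% and 17.2%, against 11.1% in WT E18.5, which is 1 nucleus of 9. The nuclei themselves were chosen at full and unequal depth. Nuclei with macrophage markers, which should lack Adipoq, held 0 UMIs of it in the 4 libraries. Lipid droplet genes differed more: Plin4 had 120, 788 and 957 CPM in Cacna1s-/- E18.5, P5 and adult, against 78.4 in WT E18.5. Cidec, which fuses lipid droplets, had 252, 405 and 1740 CPM, against 135 in WT E18.5. Plin1, the main perilipin of fat cells, had 472, 889 and 890 CPM, against 269 in WT E18.5. Both E18.5 libraries were thus the lowest for Plin1, Plin4 and Cidec. Lipe had 382, 483 and 890 CPM, against 291 in WT E18.5, and Acvr1c, an activin receptor of fat cells, 1105, 807 and 1327 CPM, against 392 in WT E18.5.

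RNA of other cell types was present beside the fat genes. The 12 myonuclear markers summed to 3080 CPM in Cacna1s-/- E18.5, 751 at P5 and 1537 in adult members, against 695 in WT E18.5 members, and to 3391, 1846 and 3616, against 2151, in the other nuclei with Ttn under 1%. Ttn itself, which the rule capped, was at 1142, 171 and 685 CPM, against 101 in WT E18.5 members. The 8 mesenchymal markers summed to 534, 1045 and 260 CPM, against 863 in WT E18.5 members. Endothelial markers summed to 142, 160 and 19.1 CPM, against 0 in WT E18.5, and macrophage markers to 96.0, 14.9 and 7.16 CPM, against 11.2. Members that also met a 3-marker rule for another cell class numbered 21 of 114 in Cacna1s-/- E18.5, 10 of 32 at P5 and 4 of 106 in adult, against 3 of 9 in WT E18.5. The part that shared droplets or free RNA have in the gene values was not tested.

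The brown fat genes Ucp1, Elovl3 and Dio2 were at or near 0 UMIs. Ucp1, which encodes the uncoupling protein of brown fat, had 0 UMIs in all 261 members, which allows up to 2.13 CPM in Cacna1s-/- E18.5, 11.2 at P5 and 7.16 in adult, against 33.6 in WT E18.5. Elovl3, a fatty acid elongase of active brown fat, also had 0 UMIs in every library. Dio2, the deiodinase that activates thyroid hormone, had 1, 0 and 2 UMIs in Cacna1s-/- E18.5, P5 and adult, against 0 in WT E18.5. Depth sets how firm these zeros are, and they say little for the 9 WT E18.5 nuclei, where a gene at up to 33.6 CPM could have been missed.

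Cidea, a lipid droplet protein abundant in brown fat, had 2 and 1 UMIs in Cacna1s-/- E18.5 and P5 members and 33 UMIs in 7 adult members, against 0 in WT E18.5. Of the adult UMIs 23 (69.7%) came from 1 nucleus, and without it the gene was no longer called higher in adult. Prdm16, a transcriptional regulator of brown and beige fat, was at 76.8 CPM in Cacna1s-/- E18.5, 134 at P5 and 200 in adult, against 33.6 in WT E18.5 (3 UMIs). The same gene was at 105, 122 and 485 CPM in nuclei with endothelial markers, against 87.5 in WT E18.5 endothelial-marker nuclei, though the adult value rests on 7 UMIs. Ppargc1a, a coactivator of mitochondrial biogenesis, was at 78.3, 78.1 and 146 CPM in members, against 44.8 in WT E18.5 members, and at 172, 427 and 404 CPM in fiber nuclei, against 149 in WT E18.5 fiber nuclei. Of the 27 genes of the brown and beige list, 12 were measured between Cacna1s-/- and WT E18.5, 5 between P5 and WT E18.5 and 9 in each of the 2 adult comparisons.

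White fat genes were read in every library. Lep, which encodes leptin, had 20.6 CPM in Cacna1s-/- E18.5 (29 UMIs in 18 nuclei), 119 at P5 (32 UMIs in 11 nuclei) and 90.7 in adult (38 UMIs in 19 nuclei), against 44.8 in WT E18.5 (4 UMIs in 3 nuclei). Nuclei with mesenchymal, endothelial or macrophage markers had 0 UMIs of Lep in the 4 libraries. Retn, encoding resistin, had 157, 70.6 and 150 CPM, against 146 in WT E18.5. Cfd, encoding the serine protease adipsin, had 173, 219 and 155 CPM, against 44.8, and is a gene of the identity list and not of the white list. Slc7a10, an amino acid transporter of white fat, had 108 CPM in Cacna1s-/- E18.5, 357 at P5 and 363 in adult, against 78.4 in WT E18.5. Nnat, an imprinted gene encoding neuronatin, had 47.0, 1260 and 1675 CPM, against 44.8 in WT E18.5, and the intervals of P5 and adult did not overlap those of the E18.5 libraries.

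**Figure D2:**
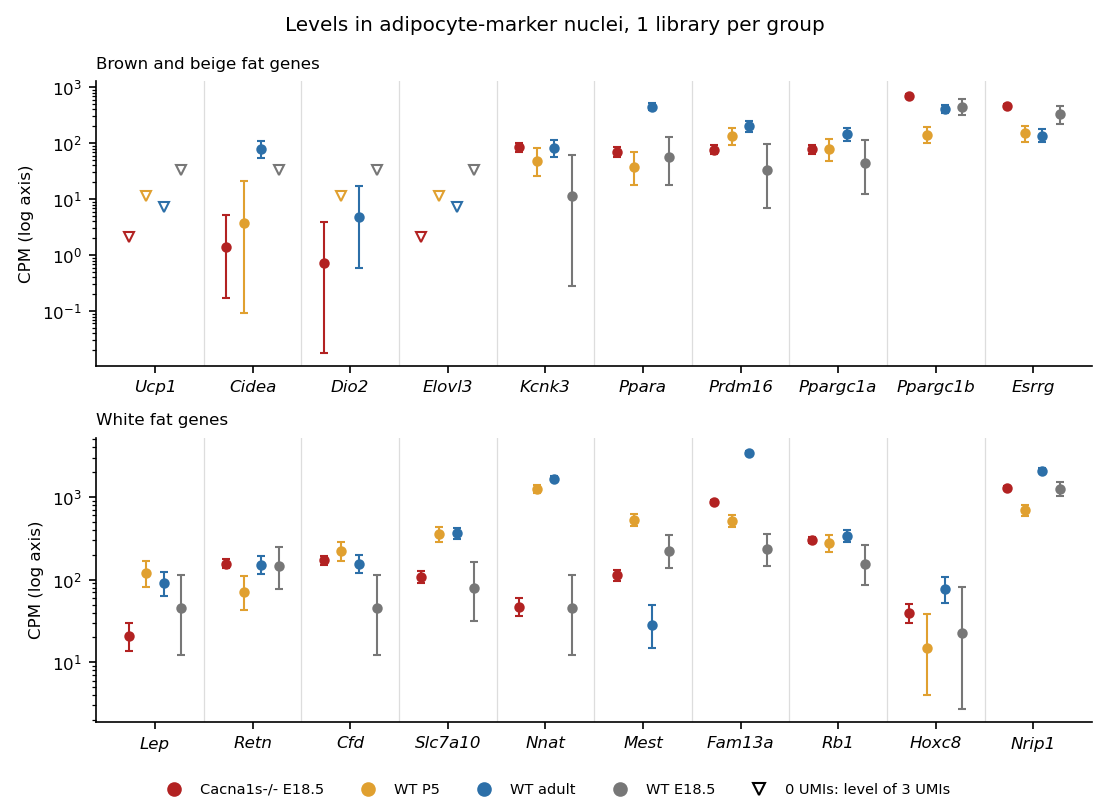
Levels of brown and white fat genes in the adipocyte-marker nuclei of each library (CPM on a log axis with exact Poisson 95% intervals, counting error only, and open triangles at the level of 3 UMIs where 0 were read). Ucp1 is at 0 in all 4 libraries, whereas Nnat and Slc7a10 are higher at P5 and in adult than in either E18.5 library. Cfd, drawn with the white fat genes, is a gene of the identity list.

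Between Cacna1s-/- and WT E18.5 members the question was whether fat nuclei of muscle without the calcium channel differ in expression at the same age. With 1 library a group no test can be made, so a gene was called where its CPM ratio was at least 2-fold and the exact 95% counting interval left out 1, among genes with at least 20 UMIs on one side. Of 8412 genes 317 were called higher (3.77%) and 554 lower (6.59%) in Cacna1s-/- E18.5. Most of the lower calls were lost without the fullest nucleus of each gene: 260 were called higher and 72 lower, of which 234 and 71 were among the calls above. Here and below, that nucleus was taken out only from the library where the gene was higher, with the totals kept. Every ratio thus moves toward 1 or past it, and a side of 9 nuclei can lose more of its UMIs than one of 114. The setting shows how far a call rests on 1 nucleus and is no like-for-like comparison. Scaling by TMM moved the median log2 ratio of all genes to 0.19 (−0.14 without it), and the share of calls that were higher to 70.5% (36.4% without it). The calls also depended on which nuclei were members. Without members carrying markers of another class 123 of the 317 higher and 254 of the 554 lower calls stood. With at least 4 markers 175 and 321 stood, and with Plin4 and Lipe left out of the rule 160 and 291.

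Of 21 identity genes 3 were higher and 1 lower in Cacna1s-/- E18.5. Fabp4, the fatty acid binding protein of fat cells, had 601 CPM in Cacna1s-/- E18.5, against 89.7 in WT E18.5, 6.71-fold higher (3.39 to 15.6). Cd36, which takes up fatty acids, had 777 CPM, against 269 in WT E18.5 (2.89-fold, 1.93 to 4.53). Cfd was 3.86-fold higher (1.49 to 14.3) on 4 UMIs in WT E18.5, and G0s2, an inhibitor of triglyceride lipase, was the lower one. With no upper UMI limit, which adds 59 Cacna1s-/- E18.5 nuclei, Cfd lost its call, 2 identity genes were higher and 4 lower, and the list's median log2 ratio was −0.76 (0.05 with the limit). Lpl, lipoprotein lipase, did not meet the rule, with 1049 CPM in Cacna1s-/- E18.5 and 885 in WT E18.5. In the droplet list Pde3b, the phosphodiesterase through which insulin restrains lipolysis, had 2115 CPM, against 672 in WT E18.5 (3.15-fold, 2.44 to 4.13), and 3 of 13 genes were higher (with Abhd5 and Prkar2b) and 1 lower (G0s2). All 3 lost their calls with no upper UMI limit, where 0 droplet genes were higher and 2 lower. Abhd5 and G0s2 lost theirs without the fullest nucleus, and Prkar2b turned to a log2 ratio of −0.21 when members were thinned to 1000 UMIs.

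Several enzymes that make fatty acids were lower. Of 23 lipogenesis genes 0 were called higher and 8 lower, with a median log2 ratio of −0.35 beside −0.14 for all genes. The list's median depended on the setting. It was −0.03 with TMM, where Gpam was called higher. With no upper UMI limit it was −1.10 and 13 were lower. Without the fullest nucleus, taken from the WT E18.5 side only for genes lower in Cacna1s-/- E18.5, it was 0.29 and Acacb was called higher. Acss2, Elovl6, Aacs, Me1, Acly and Fasn were called lower in each of these settings. Acly, which makes cytosolic acetyl-CoA from citrate, had 96.0 CPM in Cacna1s-/- E18.5, against 616 in WT E18.5 (6.42-fold lower, 4.60 to 8.84). Me1, which supplies NADPH, had 248 CPM, against 1266 in WT E18.5 (5.11-fold lower, 4.10 to 6.34). Acss2, which makes acetyl-CoA from acetate, had 148 CPM, against 672 (4.54-fold lower, 3.35 to 6.08). For each of these genes 41.7% to 52.7% of the WT E18.5 UMIs came from 1 nucleus.

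Among hormone receptors and signaling genes 4 of 21 were higher and 2 lower. Esr1, the estrogen receptor alpha, had 281 UMIs (200 CPM) in 65 Cacna1s-/- E18.5 members, against 1 UMI (11.2 CPM) in WT E18.5, a ratio of 17.8 with an interval of 3.18 to 707. Thrb, a thyroid hormone receptor, was 3.91-fold higher (2.22 to 7.60). Egfr was called lower with 86.9% of its WT E18.5 UMIs in 1 nucleus, and without that nucleus its log2 ratio turned to 0.45. With no upper UMI limit 3 of these genes were higher and 3 lower. Of 12 preadipocyte and fibro-adipogenic genes 0 were higher and 7 lower, among them Dlk1, a preadipocyte surface protein, with 285 CPM in Cacna1s-/- E18.5, against 740 in WT E18.5. Only Fap, a fibroblast protease, kept its call without the fullest nucleus, and Dlk1 turned to a log2 ratio of 2.27 when members with markers of another class were left out. With no upper UMI limit 2 of 15 preadipocyte genes were higher (Fbn1 and Pdgfra) and 4 lower (Fn1, F3, Lum and Pdgfrb). Fap and Dlk1 were not among those calls.

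In the brown and beige list Kcnk3, a potassium channel, was higher on 1 WT E18.5 UMI (84.7 CPM in Cacna1s-/- E18.5, against 11.2) and Letmd1, a mitochondrial protein, was lower (3.15-fold, 1.54 to 5.92), which was 1 of 12 in each direction. In the white list Fam13a, a gene linked to body fat distribution in humans, was higher (875 CPM in Cacna1s-/- E18.5, against 235 in WT E18.5, 3.72-fold, 2.42 to 6.03), 1 of 11. Adipogenic factors gave 0 calls of 23, and Ebf1 and Nfia stood at 4704 and 7544 CPM in Cacna1s-/- E18.5, against 3272 and 4662 in WT E18.5. Other lists gave 2 higher and 1 lower of 14 secreted factors, 1 higher of 18 matrix genes (Col4a5), 2 higher and 1 lower of 15 imprinted growth genes, and 2 higher of 16 cell cycle genes (Cenpf and Kif11). Of these calls Cfd, Sgce, Cenpf and Kif11 stood without the fullest nucleus. Of the myonuclear markers 6 of 9 measured were higher and 1 lower with Ttn 11.3-fold higher (5.95 to 24.8), and the part of fiber RNA in the other values was not tested. With no upper UMI limit Kcnk3 lost its call, and the brown and beige list gave 0 higher and 1 lower of 19. White genes then gave 2 higher and 1 lower (Lep) of 12, and adipogenic factors 0 higher and 2 lower of 25. Secreted factors gave 0 higher and 2 lower (Lep and Angptl4) of 16, and matrix genes 0 calls of 18. Imprinted growth genes gave 5 higher and 0 lower of 15, and cell cycle genes 4 higher of 16.

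Outside the lists, Lrmda, a gene of melanocyte differentiation, had 3697 UMIs in 105 Cacna1s-/- E18.5 members, 5.33-fold higher than in WT E18.5 (3.97 to 7.35). Dlg2, a synaptic scaffold gene, was 10.7-fold higher (4.58 to 33.2), but in 40 members only and on 5 UMIs of 1 WT E18.5 nucleus. Mef2c, a muscle and vascular transcription factor, and Erbb4, a neuregulin receptor, had 437 and 333 UMIs in Cacna1s-/- E18.5, against 2 and 1 in WT E18.5. Fgf13 had 223 UMIs, against 0 in WT E18.5, and was at least 4.72-fold higher, with 3 UMIs over the group in place of 0 here and in the other bounds. Among the leading lower genes Cemip, a hyaluronan-binding gene, had 4 UMIs in Cacna1s-/- E18.5, against 82 in WT E18.5, and Mmp9, a gelatinase, 0 against 23, each with all WT E18.5 UMIs in 1 nucleus. Astn2, Ptpn13 and Bmp6 were 10.6-fold, 9.45-fold and 8.59-fold lower, with 62.9%, 74.1% and 87.5% of the WT E18.5 UMIs in 1 nucleus.

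P5 members were set against WT E18.5 members to follow the first days after birth. Of 3103 genes 430 were called higher (13.9%) and 249 lower (8.02%) at P5, and without the fullest nucleus 270 and 70. TMM moved the median of all genes to 0.44 (0.08 without it) and the share of calls that were higher to 85.5% (63.3% without it). Of the identity genes 8 of 16 were higher and 1 lower, with a median log2 ratio of 1.15, and the 8 higher calls stood without the fullest nucleus. Fabp4 had 1391 CPM at P5, against 89.7 in WT E18.5 (15.5-fold, 7.79 to 36.2). Ghr, the growth hormone receptor, had 13434 CPM, against 2880 (4.66-fold, 4.11 to 5.31). Npr3, the clearance receptor for natriuretic peptides, had 223 UMIs in 19 P5 members, against 0 in WT E18.5, at least 24.7-fold higher. Pck1, which makes glycerol phosphate for triglyceride, had 565 CPM, against 67.2 (8.40-fold, 3.77 to 23.3).

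In the white list 4 of 7 genes were higher and 0 lower at P5: Nnat 28.1-fold (10.9 to 104), Slc7a10 4.55-fold (2.13 to 11.6), Mest and Fam13a, and Nnat and Slc7a10 kept their calls without the fullest nucleus. Lep did not meet the rule (2.65-fold, 0.941 to 10.3). In the brown and beige list 1 of 5 was higher and 2 lower, Prdm16 3.98-fold higher (1.26 to 20.2) on 3 WT E18.5 UMIs and Ppargc1b, a second coactivator of mitochondrial genes, 3.17-fold lower (1.98 to 5.08). Esrrg, an orphan receptor of oxidative tissue, was lower as well, and only Ppargc1b kept its call without the fullest nucleus. Lipogenesis genes were 1 higher and 9 lower of 20, including Acly with 78.1 CPM at P5, against 616 in WT E18.5 (7.89-fold lower, 4.70 to 13.7), Acacb 7.91-fold lower (3.37 to 20.7) and Me1 4.67-fold lower (3.45 to 6.35). Without the fullest nucleus 6 were lower, and Acacb, with 66.7% of its WT E18.5 UMIs in 1 nucleus, Elovl6 and Gpd1 lost their calls. The comparisons of Cacna1s-/- E18.5, P5 and adult with WT E18.5 share its 9 nuclei and are not independent of each other.

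Hormone receptors and signaling genes were 7 higher and 2 lower of 19 at P5. Esr1 had 140 UMIs, against 1 in WT E18.5 (46.4-fold, 8.20 to 1848), and Thrb was 3.93-fold higher (2.18 to 7.78). Without the fullest nucleus 4 were called higher (Esr1, Thrb, Ghr and Egfr) and 0 lower. Egfr, called lower with all nuclei, was called higher there after its fullest nucleus was taken from the WT E18.5 side only. Nrg4, a neuregulin secreted by fat, had 561 CPM, against 123 in WT E18.5 (4.55-fold, 2.47 to 9.32), one of 3 higher and 1 lower of 9 secreted factors. Droplet genes gave 3 higher of 8 (Pde3b, the kinase subunit gene Prkar2b and the lipase gene Mgll) and 2 lower (Abhd5 and G0s2, which activate and inhibit triglyceride lipase), and adipogenic factors 1 higher of 11 (Prdm16). Without the fullest nucleus Mgll and Prkar2b were the droplet genes called and no adipogenic factor was. Preadipocyte genes gave 2 higher and 2 lower of 8, with Dlk1 4.63-fold (3.10 to 6.96) and Gpc3 3.36-fold (2.45 to 4.62) lower. Col1a1, a fibrillar collagen gene, was 7.01-fold higher with 57.7% of its P5 UMIs in 1 nucleus. Matrix genes gave 3 higher and 1 lower of 16, imprinted growth genes 4 higher and 1 lower of 11, and cell cycle genes 3 lower of 3, and the cell cycle calls did not stand without the fullest nucleus, where the matrix list gave 1 higher (Col1a2).

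The P5 genes outside the lists included Mageb18, a member of an antigen family on the X chromosome, with 643 UMIs in 22 of 32 P5 members, against 0 in WT E18.5, at least 71.1-fold higher. Kcnc2, a potassium channel gene, was 21.5-fold higher (8.29 to 79.4) and Fry 14.3-fold higher (7.92 to 28.8), and the predicted gene Gm4876 at least 11.6-fold. Col11a1 was named too, but 64.5% of its P5 UMIs came from 1 nucleus. Lower genes were Ncam2, a cell adhesion gene (102-fold, 46.3 to 283), Angptl8, an insulin-induced secreted inhibitor of lipoprotein lipase (34.7-fold, 8.57 to 303, on 2 P5 UMIs), Prune2 (0 P5 UMIs, at least 24.1-fold), Cemip and Mmp9.

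In adult members more identity and droplet genes were called higher over WT E18.5 than lower. Of 3817 genes 624 were called higher (16.3%) and 518 lower (13.6%) in adult, and without the fullest nucleus 533 and 217. With TMM the median of all genes was 0.69 (0.04 without it) and 85.8% of the calls were higher (54.6% without it). Identity genes gave 13 higher and 1 lower of 19, with a median log2 ratio of 1.79. Fabp4 had 1434 CPM in adult, against 89.7 in WT E18.5 (16.0-fold, 8.07 to 37.2), Cd36 1546 CPM, against 269 (5.75-fold, 3.83 to 9.04), and Npr3 was at least 26.9-fold higher on 379 UMIs. White genes gave 4 higher and 1 lower of 9, with Nnat 37.4-fold (14.53 to 138), Fam13a 14.7-fold (9.59 to 23.9) and Slc7a10 4.62-fold (2.19 to 11.7) higher. Mest was the lower one, with 28.6 CPM in adult, against 224 in WT E18.5. Brown and beige genes gave 5 higher and 1 lower of 9: Ppara, a receptor that drives fatty acid oxidation (449 CPM in adult, against 56.0 in WT E18.5, 8.01-fold, 3.37 to 24.9), Prdm16 (5.96-fold, 1.97 to 29.5), Ppargc1a (3.25-fold, 1.21 to 12.3), Kcnk3 and Cidea were higher and Esrrg lower. Without the fullest nucleus Cidea and Esrrg lost their calls and the other 4 kept them. Of the myonuclear markers 4 of 5 were higher in adult as well (1537 CPM in sum, against 695 in WT E18.5), and the part of fiber RNA was not tested.

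Droplet and lipolysis genes gave 8 higher and 1 lower of 13 in adult. Pde3b had 4505 CPM, against 672 in WT E18.5 (6.70-fold, 5.18 to 8.81), Prkar2b was 6.38-fold higher (4.53 to 9.26), and G0s2 had 26.2 CPM, against 347 (13.2-fold lower, 6.48 to 29.2). Lipogenesis genes split, 8 higher and 8 lower of 21, and under TMM 8 higher and 3 lower, and without the fullest nucleus 6 and 2. Gpam, which adds the first fatty acid to glycerol phosphate, had 104 UMIs, against 0 in WT E18.5, at least 7.38-fold higher, whereas Acly was 9.23-fold (5.75 to 15.1) and Me1 4.96-fold lower (3.77 to 6.52). Oxidation genes gave 5 higher of 14 and adipogenic factors 6 higher and 1 lower of 18, with the retinoid receptor Rxra at 72 UMIs, against 1 in WT E18.5, and Klf9 at 74, against 0. Hormone receptors and signaling genes gave 8 higher and 3 lower of 20, led by Esr1 with 362 UMIs, against 1 (77.1-fold, 13.7 to 3053). Without the fullest nucleus 8 were higher, now with Egfr and Ptger3, and Igf1r was the lower one, so that Egfr changed sides and Klb lost its call. For Egfr and Ptger3 the nucleus was taken from the WT E18.5 side only. Thrb was 7.88-fold higher (4.46 to 15.4) and Igf1r, the receptor of insulin-like growth factor 1, 8.15-fold lower (5.26 to 12.8). Secreted factors gave 3 higher and 2 lower of 11, Nrg4 10.6-fold higher (5.89 to 21.4) and Igf1 4.98-fold lower (3.31 to 7.52).

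Preadipocyte genes and most imprinted growth genes were lower in adult than in WT E18.5. Of the preadipocyte genes all 5 measured were lower, with and without the fullest nucleus and under TMM. Mesenchymal markers moved with them, at 260 CPM in adult members, against 863 in WT E18.5 members, of which 3 of 9 also met the rule of another class, and their part was not tested. Dlk1 had 0 UMIs in adult, against 66 in WT E18.5, at least 103-fold lower, and Gpc3, a glypican, 2 UMIs, against 87 (204-fold, 54.9 to 1714). Imprinted growth genes gave 3 higher and 7 lower of 10: Meg3, a noncoding RNA of the Dlk1 locus, had 40.6 CPM in adult, against 2578 in WT E18.5 (63.5-fold lower, 38.8 to 111), and Rian of the same locus 7.16 CPM, against 1233 (172-fold lower, 57.4 to 848). The cell cycle genes measured were 3 and were all lower. Matrix genes gave 1 higher and 4 lower of 13, with Col1a2 31.3-fold (13.2 to 90.4) and Col6a3 25.2-fold (13.1 to 53.2) lower. Outside the lists Agmo, an alkylglycerol monooxygenase, was 135-fold higher on 1 WT E18.5 UMI, Lncpint at least 38.9-fold and Cyp2e1, a cytochrome P450, at least 27.8-fold higher, beside the unnamed transcripts 9530026P05Rik and A530053G22Rik. Adgrl3, an adhesion receptor, had 1 UMI in adult, against 183 in WT E18.5, Pcdh9 3, against 129, and Fbn2 and Nrk 0, against 64 each, with Cemip as the other lower gene named.

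Adult against P5 does not use the 9 WT E18.5 nuclei and compares 106 with 32. Of 4148 genes 510 were called higher (12.3%) and 616 lower (14.9%) in adult, and without the fullest nucleus 397 and 446, with 397 and 445 of the calls shared. TMM put the median of all genes at 0.20 (−0.01 without it) and the higher share of calls at 58.8% (45.3% without it). Several genes called higher over WT E18.5 at both stages did not meet the rule here: Fabp4 had 1434 CPM in adult and 1391 at P5 (ratio interval 0.905 to 1.18), Cd36 1546 and 1543 (0.885 to 1.14), Slc7a10 363 and 357 (0.782 to 1.33) and Npr3 904 and 829 (0.922 to 1.29). Identity genes gave 3 higher and 2 lower of 19, namely Adrb3, the adrenergic receptor of fat (231 CPM in adult, against 26.0 at P5, 8.89-fold, 4.16 to 22.7), Dgat2 and Pnpla2, which make and cut triglyceride, against G0s2 and the thyrotropin receptor Tshr.

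More lipogenesis genes were called higher than lower in adult over P5. Of 22 genes 9 were higher and 1 lower, all 10 also without the fullest nucleus, with a median log2 ratio of 0.75. Acacb, an acetyl-CoA carboxylase, had 501 CPM in adult, against 29.7 at P5 (16.8-fold, 8.39 to 39.5). Thrsp, a lipogenic protein induced by thyroid hormone, had 157 CPM, against 7.44 (21.2-fold, 5.64 to 179). Gpam had 248 CPM, against 29.7 (8.34-fold, 4.08 to 19.8), and Scd1, a fatty acid desaturase, 740 CPM, against 305 (2.43-fold, 1.90 to 3.13). Scd2 was the lower one (7.79-fold, 2.61 to 31.3). Droplet genes gave 6 higher and 1 lower of 13, among them Pde3b (3.21-fold, 2.88 to 3.60), and 4 and 1 without the fullest nucleus.

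Brown and beige genes gave 4 higher and 0 lower of 9 in adult over P5: Ppara (12.1-fold, 6.42 to 25.6), Ppargc1b (2.87-fold, 2.01 to 4.20), Pank1 (3.12-fold, 1.36 to 8.33) and Cidea, a gene that lost its call without the fullest nucleus. Prdm16 at 1.5-fold (1.00 to 2.28) and Ppargc1a at 1.86-fold (1.12 to 3.22) did not meet the rule, and the coactivator met it under TMM. With no upper UMI limit, which adds 4 P5 nuclei, 6 of 10 were higher, now with Kcnk3 and Ppargc1a, and 1 lower (Lhx8). With the limit kept, 4 of 5 myonuclear markers were higher in the same comparison. Ttn was then at 685 CPM in adult members, against 171 at P5, and the part of fiber RNA was not tested. White genes gave 4 higher and 1 lower of 9: Fam13a (3465 CPM in adult, against 513 at P5, 6.75-fold, 5.67 to 8.10), Hoxc8 (5.13-fold, 1.82 to 20.0), Retn (2.13-fold, 1.26 to 3.76) and Nrip1 were higher and Mest 18.3-fold lower (10.2 to 36.3). Retn lost its call without the fullest nucleus and with no upper UMI limit. Adipogenic factors gave 5 higher and 1 lower of 18, with Rxra (7.70-fold, 3.37 to 21.7), Klf15 (5.29-fold, 1.88 to 20.6) and Klf9 (4.75-fold, 2.44 to 10.3) leading. Oxidation genes gave 1 in each direction of 15, Slc25a20 higher and Cpt1a lower (3.90-fold, 1.94 to 8.35).

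Preadipocyte genes were lower in adult than at P5 in 8 of 8 cases, matrix genes in 9 of 16 and imprinted growth genes in 8 of 11, with 0 higher in these lists. Col1a2, a fibrillar collagen gene, had 6 UMIs in adult, against 478 at P5 (124-fold lower, 56.6 to 340), Gpc3 2, against 78, and Meg3 17, against 559 (51.2-fold, 31.7 to 88.6). Secreted factors gave 3 higher and 2 lower of 11, with Nampt 2.92-fold higher (1.82 to 4.86) and Igf1 7.00-fold lower (5.11 to 9.74), and hormone receptors and signaling genes 5 in each direction of 20 (3 higher and 2 lower without the fullest nucleus). Mesenchymal markers summed to 260 CPM in adult members, against 1045 at P5. The part of mesenchymal RNA in them was not tested. Outside the lists Cyp2e1 (at least 83.9-fold), Ces1d, a lipid esterase (146-fold, 26.0 to 5804), Lncpint (25.1-fold, 14.8 to 46.3), Mylk4 and 9530026P05Rik led the higher genes, and Col11a1, Adgrl3, Nrk, Postn and Kcnc2 the lower ones.

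**Figure D3:**
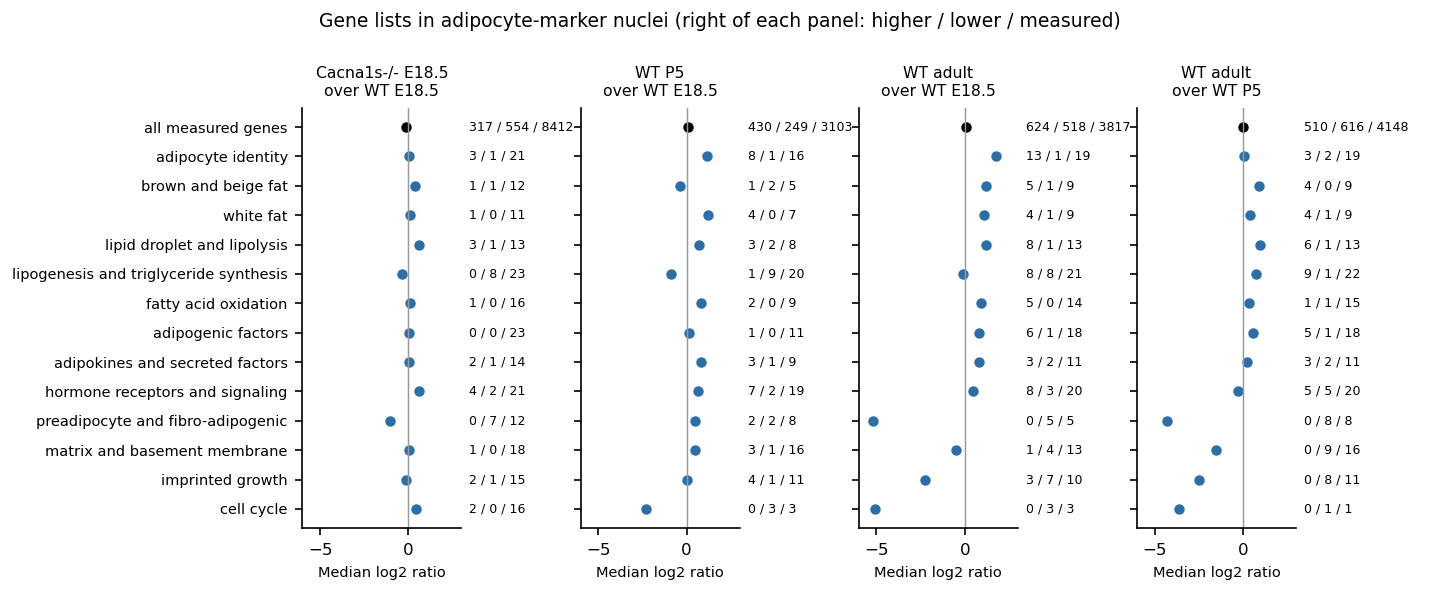
Median log2 CPM ratio of each gene list (points) in the 4 comparisons of adipocyte-marker nuclei, with the numbers of genes called higher, called lower and measured beside each panel, from 1 library per group. More lipogenesis genes are called lower than higher in Cacna1s-/- E18.5 (0 higher, 8 lower) and at P5 (1 and 9) against WT E18.5, and more are called higher in adult against P5 (9 and 1), and the preadipocyte genes measured are lower in adult in both comparisons.

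Within a library, members were also set against nuclei with mesenchymal markers (748 Cacna1s-/- E18.5, 1218 P5, 163 adult and 1401 WT E18.5 nuclei), as a description, since markers chose both sides. Of 4584 genes measured in all 4 libraries 261 were higher in members in each library (5.69%) and 241 lower (5.26%). Lipogenesis genes were higher in each library in 15 of 18 cases, identity genes in 9 of 11 and droplet genes in 6 of 7, against 3 of 7 brown and beige and 2 of 6 white genes, and 8 of 14 preadipocyte genes were lower. Car3, a carbonic anhydrase that fat and slow muscle express in large amounts, had 3796, 3071 and 2730 CPM in Cacna1s-/- E18.5, P5 and adult members and 2477 in WT E18.5 members, against 12.2, 7.57, 0 and 5.42 in the mesenchymal nuclei of these libraries. Acsl1, which activates fatty acids, had 5093, 3577, 4049 and 5122 CPM in members, against 17.6, 28.1, 14.7 and 15.3. Lncbate1, a noncoding RNA described in brown fat, had 253, 138, 110 and 280 CPM, against 3.49, 2.78, 0 and 2.19. Across the 4 libraries the highest of these levels was within 3-fold of the lowest for each gene. The progenitor marker Pdgfra had 37.0, 37.2, 2.39 and 33.6 CPM in members, against 427, 260, 413 and 346 CPM in the mesenchymal nuclei.

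Open chromatin was then compared between members and the other nuclei with Ttn under 1%, with library as a block, in 48118 regions. Members were represented by 636299 ATAC counts in Cacna1s-/- E18.5, 347079 at P5 and 1571561 in adult, against 124277 in WT E18.5. With edgeR's quasi-likelihood test and Benjamini-Hochberg adjustment 586 regions were higher in members (1.22%) and 766 lower (1.59%). The 4 libraries stand in for replicates here, though they differ in stage or genotype. The counts rest on the adult and Cacna1s-/- E18.5 libraries, since without adult 50 were higher and 34 lower, and without Cacna1s-/- E18.5 118 and 121. Leaving out members with markers of another class gave 291 higher and 727 lower.

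Regions within 50000 bases of the 7 rule genes were higher in 7 of 54 cases and lower in none. The region over the start of Plin4 (chr17:56109504-56110330, which covers the Plin4 window printed above) had 92.5, 66.7 and 106 CPM in members of Cacna1s-/- E18.5, P5 and adult and 38.6 CPM in those of WT E18.5, against 5.92, 7.81, 15.2 and 6.77 CPM in the other nuclei (log2 fold change 3.14, edgeR adjusted p = 7.5e-12). At Lipe (chr7:25389799-25390763) members had 153, 63.7, 147 and 141 CPM, against 22.0, 16.6, 40.7 and 13.01 CPM (log2 fold change 2.47, edgeR adjusted p = 9.2e-13). Members were above the other nuclei in all 4 libraries at both, in WT E18.5 on 6 ATAC counts at Plin4 and 22 at Lipe. The region over the other start of Lipe (chr7:25395417-25396356) did not pass (log2 fold change −0.02, edgeR adjusted p = 0.98).

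At Pparg the region over the second start (chr6:115361744-115362684), whose window is printed above, had 48.0, 18.2, 34.9 and 38.6 CPM in members, against 5.77, 4.57, 4.66 and 5.54 CPM in the other nuclei (log2 fold change 2.72, edgeR adjusted p = 0.0016). The WT E18.5 member value there rests on 6 ATAC counts. The region over the upstream start of Pparg did not pass (log2 fold change 1.49, edgeR adjusted p = 0.19), and the third window, further downstream, overlapped no tested region. Cd36 (chr5:17835453-17836953) had 46.2, 54.6, 67.3 and 12.9 CPM in members, against 4.70, 6.09, 7.36 and 4.43 CPM (log2 fold change 2.97, edgeR adjusted p = 1.8e-05). Its WT E18.5 member value rests on 2 ATAC counts. Acvr1c at its upstream start (log2 fold change 2.34, edgeR adjusted p = 0.00099), Lpl at its start (1.54, 0.023) and Cebpa at its start (0.93, 0.029) passed as well, whereas the other start of Acvr1c did not (1.5, 0.56). Plin1 had a higher region 47447 bases from its start (2.27, 1.9e-07), and no region near Adipoq (0 of 5) or Cidec (0 of 10) passed. The promoter windows of Plin1, Adipoq and Cidec overlapped no tested region, so these promoters were not tested. The nearest tested region lay 10340 bases from the start of Adipoq and 4786 bases from that of Cidec.

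Near brown and beige fat genes 3 of 148 regions were higher (2.03%) and 2 lower, beside 1.22% higher over all regions. Near white fat genes 7 of 62 were higher (11.3%), 3 of them at Lep, and 1 lower, and the difference between the lists was not tested. None of 2 regions near Ucp1 and none of 11 near Cidea passed. The 2 near Ucp1 lay 29186 and 41742 bases from its start, and its promoter window overlapped no tested region, so its promoter was not tested. Prdm16 had 1 higher region 11962 bases from its start (log2 fold change 2.42, edgeR adjusted p = 0.031), and Ppargc1a 1 region 41426 bases away (2.41, 0.0045). Lep had 3 higher regions near its start. The one over its start (chr6:29059526-29060611) was called as a peak in Cacna1s-/- E18.5 and adult only, at 46.2 and 58.8 CPM in members, against 5.46 and 4.91 CPM in the other nuclei of these libraries (log2 fold change 3.30, edgeR adjusted p = 0.0118). It was not a peak at P5 or in WT E18.5. Those libraries entered the test with 0 counts for members and other nuclei alike, which are not measured values. The region over the start of Fabp4 had the same form (81.8 and 71.5 CPM, against 4.55 and 3.93 CPM, log2 fold change 4.13, edgeR adjusted p = 5.4e-05). Near lipogenesis genes 18 of 163 regions were higher and 1 lower, near identity genes 16 of 171 and 0, near preadipocyte genes 0 and 16 of 120, and near hormone receptor and signaling genes none of 136 in either direction.

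The regions with the smallest adjusted p beside those at Lipe and Plin4 lay near Gm27168 (chr8:86967612-86968623, log2 fold change 4.63), 5430401H09Rik (4.52) and Pank3, a pantothenate kinase gene (4.55). The lower regions with the smallest adjusted p lay at the starts of Glis2 (−2.23) and Tshz3 (−1.96), transcription factor genes, and near Cdh5, the endothelial cadherin gene (−3.21, 77989 bases from its start), Ccdc34os (−3.94) and Trerf1 (−2.42). Of the higher regions 21.5% lay within 1000 bases of a gene start, against 38.7% of all tested.

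**Figure D4:**
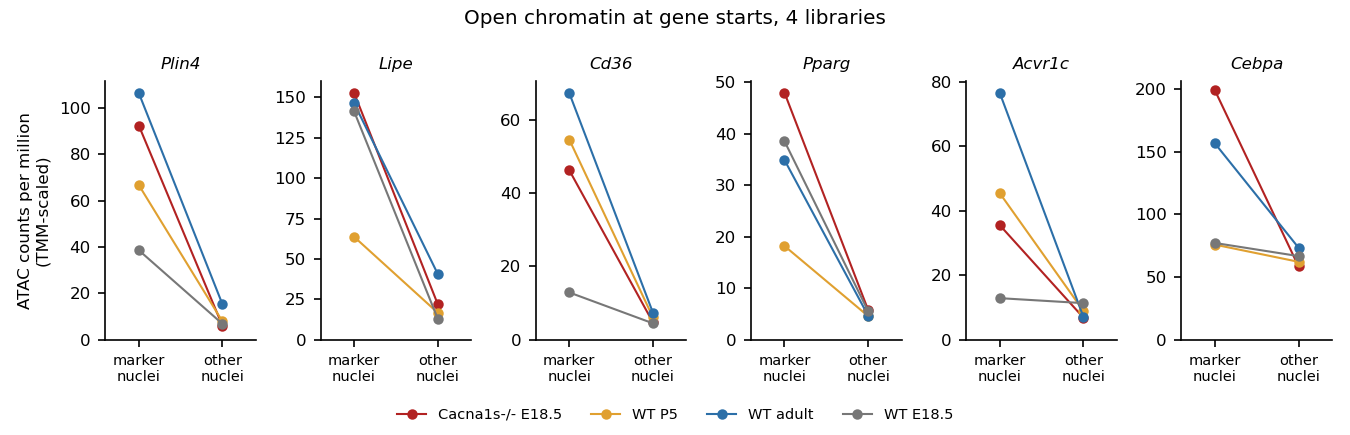
Open chromatin (CPM of ATAC counts, TMM-scaled) over the starts of Plin4, Lipe, Cd36, Pparg, Acvr1c and Cebpa in adipocyte-marker nuclei and in the other nuclei with Ttn under 1%, 1 point per library and lines joining the same library. At each of these starts the members lie above the other nuclei in all 4 libraries, but the WT E18.5 members rest on few ATAC counts (6 at Plin4, 6 at Pparg, 2 at Cd36 and 2 at Acvr1c).

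Motif letters were searched on both strands of the 32851 RefSeq windows, AGGTCA after the others had been read. The C/EBP letters TTGCGCAA were in 0.183% of all windows and in 1 of the 63 windows that overlap a higher region, that of Lep. The EBF letters were in 0.904% of all and in 2 of the 63, Plin4 and Hcar1, a lactate receptor gene. The PPARG and RXR direct repeat (AGGNCA, any base, AGGNCA) was in 0.381% of all and in 1 of the 63, and the nuclear factor I letters (TTGGC and GCCAA with 5 bases between them) in 0.0365% and in none. The short AGGTCA, contained in the direct repeat, was in 13 of the 63 (20.6%) and in 19 of 180 windows that overlap a lower region (10.6%), against 16.3% of all windows. In the 14228 windows that overlap any tested region the shares were 0.295% for C/EBP, 1.03% for EBF, 0.183% for the direct repeat, 0.0422% for nuclear factor I and 11.4% for AGGTCA. A match describes the letters and not a bound site.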

How the data were processed

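RNA and open chromatin of hindlimb muscle nuclei were read together in 5 libraries, 1 per group, of which 4 were compared. The authors deposited counts: per nucleus, the UMIs of each gene and the ATAC counts of each peak, made with Cell Ranger ARC 2.0.0 on mm10 per the submitters' processing notes, with peaks called per library. The members and gene lists were chosen with earlier results of these data known. UMIs of members were summed per library (gene UMIs in all nuclei: 49913899 in Cacna1s-/- E18.5, 24610011 at P5, 21394846 in adult, 35521496 in WT E18.5) and scaled to CPM. Ratios have exact 95% intervals, which cover counting error only, and a gene at 0 was set to 3 counts over the library. The rule genes were left out of called counts. Other cell classes needed 3 markers that sum to 0.1%. No doublet caller was run, and nuclei with markers of another class were left out as an alternative. Shares of nuclei with a UMI were also taken after thinning to 1000 UMIs.

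Peaks of the 4 libraries were merged to 127227 regions, of which 78942 were called in at least 2 libraries, and 48118 were tested with edgeR 4.0.16 (quasi-likelihood test, TMM, library as a block, adjusted p threshold 0.05). A region that was not a peak in a library entered the test with 0 counts for that library, in members and other nuclei alike. DESeq2 1.42.0 was an alternative. The edgeR step was tested on simulated data. Named were the rule genes, a fixed set of fat genes, the 3 called genes of each list with the largest ratio, the 5 genes outside the lists in each direction whose interval bound lay farthest from 1, and regions within 50000 bases of these genes or with the 5 smallest adjusted p. Other list members were named after their values were seen. RefSeq promoter windows (GRCm38.p6) matched 24 of 31 genes asked. Python 3.11.15, scipy 1.17.1 and R 4.3.3 were used.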

Additional observations from a re-analysis of the deposited data

How the results depend on the processing

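Alternatives without the upper UMI limit or without the fullest nucleus of each gene were chosen after seeing the data. The fullest nucleus was taken out only on the side where the gene was higher, with the totals kept, which moves every ratio toward 1 or past it. The share of marker nuclei in Cacna1s-/- E18.5 was 2.88% without nuclei carrying markers of another class and 4.80% with no upper UMI limit, and the shares in the other libraries moved less than their intervals. Counts of called genes are given as higher then lower. Scaled by TMM they were 642 and 269 for Cacna1s-/- over WT E18.5, 725 and 123 for P5 over WT E18.5 and 1264 and 209 for adult over WT E18.5. With members thinned to 1000 UMIs they were 16 and 28, 39 and 4, 75 and 29, and for adult over P5 156 and 65, so depth limits how many genes can be called. With the whole interval beyond 2-fold they were 48 and 91, 116 and 69, 260 and 193, and 188 and 326. Without the fullest nucleus 72 genes were lower in Cacna1s-/- E18.5, 270 and 70 were called at P5 and 217 were lower in adult over WT E18.5. At a minimum of 50 UMIs 347 were lower in Cacna1s-/- E18.5, 257 and 37 called at P5, 143 lower in adult over WT E18.5 and 300 and 214 called in adult over P5. With no minimum the lower counts were 924, 1926 and 1622 in the 3 postnatal comparisons. With 2-fold whatever the interval Cacna1s-/- E18.5 gave 981 and 1240. With no upper UMI limit 378 were lower at P5 and 1113 in adult over P5, and without mixed nuclei 137 and 322. Calls that stood without mixed nuclei were 123 of 317 and 254 of 554 for Cacna1s-/- over WT E18.5. For P5 over WT E18.5 they were 245 and 70. The adult comparisons kept 367 and 311 over WT E18.5 and 352 and 229 over P5. ATAC regions numbered 291 higher without mixed nuclei and 1724 with DESeq2. Leaving out 1 library gave 50 to 873 higher and 34 to 570 lower (118 and 121 without Cacna1s-/- E18.5, 50 and 34 without adult, and 429 lower without P5). With no replicate block, that is without pairing the 2 sums of a library, 39 were higher and 4 lower. No pairing across groups was possible with 1 library each. Of the single gene values 2254 stayed within their interval, 340 moved further and 9 turned round, and 85 had too few UMIs for a value. Direction was checked for called genes only. The log2 ratios that turned round were, for Cacna1s-/- over WT E18.5, Prkar2b −0.21, Igf2 −0.19 and Cenpf −0.19 when thinned, Egfr 0.45 without the fullest nucleus and Dlk1 2.27 without mixed nuclei. For P5 over WT E18.5 they were Acadl −0.0227 when thinned and Diaph3 1.64 with at least 4 markers and 0.086 without the fullest nucleus, and for adult over P5 Ttn −1.45 with no upper UMI limit. The cause was not tested.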

Other observations

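Single nuclei carried some genes of other lineages. Runx2, an osteogenic transcription factor, had 30.6 CPM in Cacna1s-/- E18.5 members, 171 at P5 and 28.6 in adult, against 672 in WT E18.5, where all 60 UMIs came from 1 nucleus. Trp63, a transcription factor of epithelia and germ cells, had 153, 11.2 and 28.6 CPM in members of Cacna1s-/- E18.5, P5 and adult, against 0 in WT E18.5, and 1050, 602 and 455 CPM in fiber nuclei, against 280 in WT E18.5 fiber nuclei. Progenitor markers of the muscle lineage summed to 156, 66.9 and 2.39 CPM in members, against 426 in WT E18.5 members.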
